A study of Homo sapiens with 12 samples.

Results

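The 9 genes described here encode 7 matrix metalloproteinases (MMP1, MMP2, MMP7, MMP9, MMP10, MMP13 and MMP14) and the urokinase-type plasminogen activator (PLAU) with its receptor (PLAUR). They were taken by symbol from a table of gene counts, where all 9 were found among 61044 gene IDs. The rule used no measured value, but the members were chosen with earlier results of these data known. The cells were SCC-15, a human oral squamous carcinoma cell line, and carried a control hairpin (short hairpin RNA labelled NC) or 1 of 3 hairpins against FMOD (shRNA1, shRNA2, shRNA3), the gene of the matrix proteoglycan fibromodulin. Their RNA was sequenced. Cells were harvested at 48 hours, and each of the 4 groups had 3 libraries. The labels do not say whether the 3 libraries of a group came from separate cultures, so the p-values measure the spread between these libraries, which may be technical. By the labels all groups are the same cell line, and each carries a hairpin. The identity of the NC cells was not tested.

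Matrix metalloproteinases are zinc-dependent enzymes that are made as inactive proenzymes and cut collagens, gelatin, laminin and other matrix and cell-surface proteins. Urokinase, held at the cell surface by its receptor, turns plasminogen into plasmin, a broad protease that can also activate several pro-metalloproteinases. MMP14 sits in the plasma membrane and, together with TIMP2, activates pro-MMP2. In squamous carcinomas these enzymes are known for their part in invasion through the basement membrane.

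FMOD itself had 2, 2 and 3 counts in the NC libraries and 0 in all 9 FMOD-hairpin libraries, where 3 counts correspond to 0.145 to 0.222 CPM (counts per 1000000 counts of a library). Library totals lay between 17286934 and 19567192 counts, and CPM were scaled by edgeR's TMM factors (0.771 to 1.11). Across all tested genes the NC libraries stood far from the hairpin libraries, with correlations of log2 CPM of 0.751 to 0.772, and shRNA3 libraries 1 and 2 stood apart from shRNA3 library 3 (0.907 and 0.903, against 0.982 with each other). Every comparison with NC rests on the same 3 libraries, and any difference of the NC cells that has another source than the hairpins cannot be told apart from that of the hairpins. The shRNA3 values of the members are given with and without shRNA3 libraries 1 and 2, as are those of some other named genes. Named genes without a second value could change in size too, such as PKP1 (log2 -2.29 to -3.42) and TIMP1 (2.58 to 1.91). The fit without libraries 1 and 2 leaves library 3 as the only shRNA3 library. Its shRNA3 calls therefore rest on the spread within the other groups. Of 10 squamous keratinocyte markers, at least 9 reached 1 CPM in every library of each group (summed level 1320 to 2280 CPM over all libraries). In edgeR's quasi-likelihood test (Benjamini-Hochberg adjusted p under 0.05) 3 of the 10 rose with all 3 hairpins and 3 fell, beside 16% and 19.7% of all tested genes. The keratins KRT14, KRT6A and KRT17 rose (log2 1.69 to 4.30, 1.20 to 2.22 and 0.87 to 1.26), and the shRNA3 value of KRT14 was 1.76 in place of 4.30 without shRNA3 libraries 1 and 2. KRT5, a basal keratin, and the desmosome genes DSC3 and PKP1 fell, KRT5 from between 964 and 1050 CPM in NC to between 16.5 and 90.2 CPM.

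RefSeq promoter sequence (GRCh38.p14) was at hand for 5 of the 9 genes: MMP7, MMP10, MMP14, PLAU (2 start sites) and PLAUR. MMP1, MMP2, MMP9 and MMP13 had no entry. The 250 bases before the start site are shown for 3 of them: MMP10, which was higher with every FMOD hairpin, MMP7, which lies in the same gene cluster and was lower with 2 of them, and MMP14, which had the largest fall. They are written 5′ to 3′ on the strand of the gene. Capitals mark matches to TGAGTCA (the AP-1 site), TATAAA (the TATA box) and AGGAAG (an ETS core), each searched on both strands, so that a match on the opposite strand reads CTTCCT.
MMP10 (chr11:102780629-102780878, minus strand): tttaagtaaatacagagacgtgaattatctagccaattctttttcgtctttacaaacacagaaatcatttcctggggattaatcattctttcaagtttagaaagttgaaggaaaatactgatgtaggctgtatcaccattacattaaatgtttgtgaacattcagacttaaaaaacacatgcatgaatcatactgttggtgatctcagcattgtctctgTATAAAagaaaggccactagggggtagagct
MMP7 (chr11:102530748-102530997, minus strand): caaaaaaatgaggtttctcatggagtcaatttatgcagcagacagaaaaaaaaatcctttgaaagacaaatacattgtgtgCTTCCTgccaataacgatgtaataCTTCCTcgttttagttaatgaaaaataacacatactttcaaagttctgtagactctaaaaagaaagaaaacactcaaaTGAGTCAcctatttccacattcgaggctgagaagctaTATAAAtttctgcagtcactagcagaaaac
MMP14 (chr14:22836335-22836584, plus strand): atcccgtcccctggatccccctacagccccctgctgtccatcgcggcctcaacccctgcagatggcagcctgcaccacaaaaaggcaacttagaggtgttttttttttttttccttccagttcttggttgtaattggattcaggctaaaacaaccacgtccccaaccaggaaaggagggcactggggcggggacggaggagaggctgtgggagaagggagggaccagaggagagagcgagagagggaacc

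MMP10 held a TATA box from 31 to 26 bases before its start, and MMP7 one from 30 to 25. MMP7 also held an AP-1 site from 67 to 61 bases upstream and ETS cores, on the opposite strand, from 169 to 164 and from 145 to 140. PLAUR held an AP-1 site from 186 to 180 bases upstream and an ETS core, on the opposite strand, from 15 to 10. PLAU held an ETS core from 221 to 216 bases before its second start, none of these letters stood before its first, and MMP14 held none. Among all 35116 promoter windows of the same length, 4.2% held the AP-1 letters, 10.7% the TATA letters and 28.7% the ETS letters. GC content was 34.4% for MMP10 and 33.6% for MMP7, against 56.8% for MMP14, 63.2% for PLAUR and a median of 58.0% over all windows. A match describes the letters in the window and not a bound site.

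Each hairpin against FMOD was compared with NC to ask which of the 9 genes change with it. MMP1, MMP10 and PLAUR rose with all 3 hairpins, and MMP2, MMP14 and PLAU fell with all 3. MMP7 fell with shRNA1 and shRNA2, MMP13 passed the test with none, and MMP9 had too few counts to be tested in the model. In edgeR's quasi-likelihood test with Benjamini-Hochberg adjustment over 17532 genes (adjusted p under 0.05), 7 of the 8 tested members were called for shRNA1 (3 higher and 4 lower), where 57.4% of all tested genes were called (26.8% higher and 30.6% lower). For shRNA2 the count was 7 of 8 (3 and 4), beside 53% of all genes (24.6% and 28.4%). For shRNA3 it was 6 of 8 (3 and 3), beside 53.9% (26.4% and 27.6%). For the mean of the 3 hairpins 7 of 8 were called (3 and 4), where the share over all genes was 60% (27.9% and 32.2%). The 6 members called in 1 direction with all 3 hairpins stand beside 35.7% of all tested genes (16% higher and 19.7% lower). The 3 comparisons use the same 3 NC libraries, so they are not independent of each other.

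**Figure D1:**
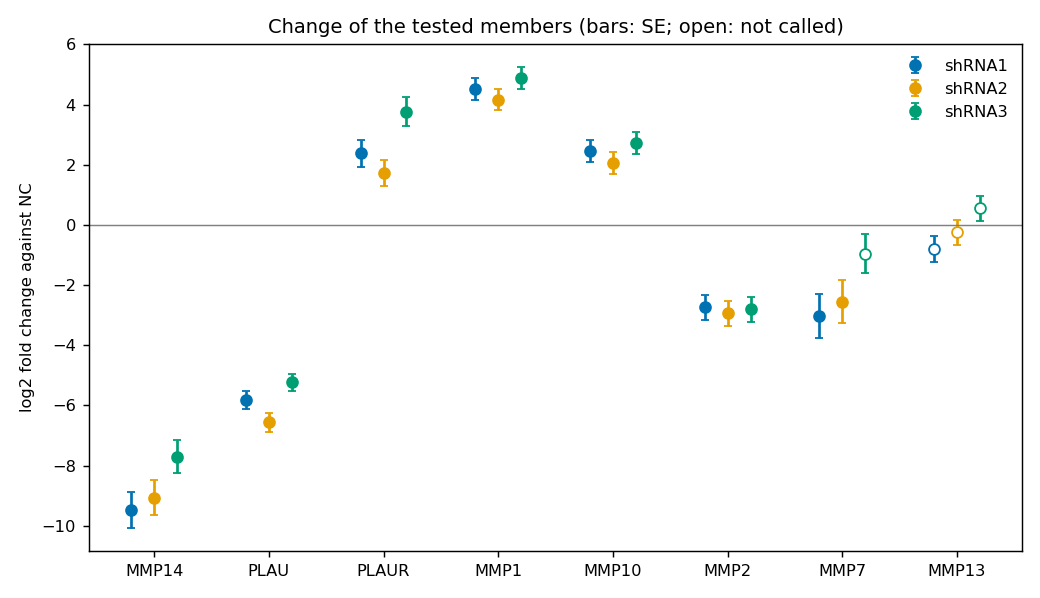
Log2 fold change against NC (y axis) of the 8 tested members (x axis) with shRNA1, shRNA2 and shRNA3, with bars of 1 SE; open points did not pass the test. MMP14 lies lowest, at -9.48, -9.07 and -7.70, and MMP1 highest, at 4.52, 4.16 and 4.89.

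The size of the changes varied widely among the members. Median log2 fold changes over the 8 tested members were -1.76, -1.40 and -0.20 for shRNA1, shRNA2 and shRNA3, beside -0.02, -0.05 and -0.03 over all tested genes. Against the mean of the hairpins, MMP14 and PLAU changed by at least 32-fold, a size that 6.79% of all tested genes reached. In 7 of the 8 tested members the 9 hairpin libraries did not overlap the 3 NC libraries (3 above and 4 below), which held for 44.8% of all tested genes (19% above and 25.8% below). The exception was MMP13.

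The urokinase gene fell and its receptor rose. PLAU (ENSG00000122861, chromosome 10, 73909177 to 73917497, plus strand, GRCh38 with GENCODE 29), the serine protease that activates plasminogen, was at 469, 495 and 522 CPM in NC. It was at 8.65, 7.79 and 10.1 CPM with shRNA1, at 5.26, 5.29 and 5.15 CPM with shRNA2 and at 13.7, 18.6 and 7.49 CPM with shRNA3. No hairpin library came near the NC libraries, and the shRNA2 libraries were the lowest. PLAU was 56-fold lower with shRNA1 (log2 -5.81, SE 0.30, edgeR quasi-likelihood, Benjamini-Hochberg adjusted p = 1.69e-07), 94.5-fold lower with shRNA2 (-6.56, SE 0.31, adjusted p = 8.11e-08) and 37.5-fold lower with shRNA3 (-5.23, SE 0.29, adjusted p = 1.96e-07). The shRNA3 value was -6.02 without shRNA3 libraries 1 and 2. C10orf55 overlaps PLAU on the opposite strand, and since whether counting used strand is not given in the sources used here, reads of the pair cannot be told apart.

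PLAUR (ENSG00000011422, chromosome 19, 43646095 to 43670547, minus strand), the glycolipid-anchored protein that holds urokinase at the cell surface, was at 23.4, 24 and 19.8 CPM in NC. It was at 133, 122 and 92.6 CPM with shRNA1, at 74.2, 74.0 and 72.1 CPM with shRNA2 and at 429, 399 and 88.7 CPM with shRNA3. All 9 hairpin libraries were above NC, and shRNA3 libraries 1 and 2 were far above the other 7, while shRNA3 library 3 lay among those of the other hairpins. PLAUR was 5.19-fold higher with shRNA1 (log2 2.38, SE 0.44, edgeR quasi-likelihood, Benjamini-Hochberg adjusted p = 0.000805), 3.28-fold higher with shRNA2 (1.72, SE 0.43, adjusted p = 0.00591) and 13.7-fold higher with shRNA3 (3.77, SE 0.47, adjusted p = 5.12e-05). Without shRNA3 libraries 1 and 2 the shRNA3 value, from library 3 alone, was 2.02 on the log2 scale, a smaller rise in the same direction. The pseudogene RN7SL368P overlaps PLAUR on the same strand.

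Set per kilobase of exon, the order of enzyme and receptor turned over. The PLAU level per kilobase was 30.3, 31.2 and 39.9 times that of PLAUR in the NC libraries. In the 9 hairpin libraries the PLAUR level was 6.06 to 20.7 times that of PLAU. The ranges of the ratio do not overlap.

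**Figure D2:**
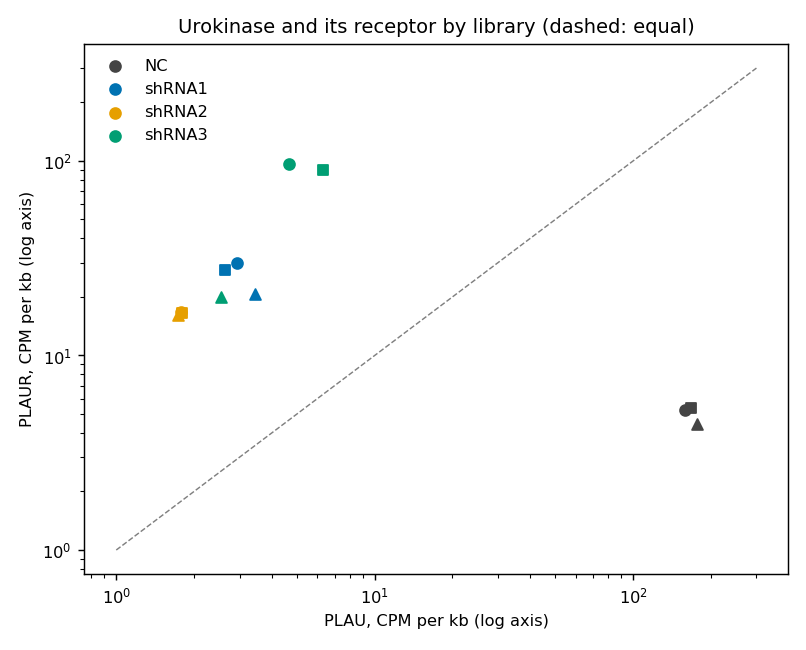
CPM per kilobase of PLAU (x axis) and PLAUR (y axis), both on log axes, in the 12 libraries; circles, squares and triangles are libraries 1, 2 and 3, and the dashed line marks equal levels. The 3 NC libraries lie below the line at 159 to 177 for PLAU, and the 9 hairpin libraries lie above it.

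MMP14 and MMP2, the membrane protease and the gelatinase it activates, both fell. MMP14 (ENSG00000157227, chromosome 14, 22836557 to 22849027, plus strand, no overlapping gene) was at 480, 391 and 387 CPM in NC. It was at 0.447, 0.678 and 0.619 CPM with shRNA1, at 0.409, 1.24 and 0.664 CPM with shRNA2 and at 2.74, 3.06 and 0.496 CPM with shRNA3. The change is from 7635 or more counts in each NC library to between 7 and 42 in each hairpin library. MMP14 was 713-fold lower with shRNA1 (log2 -9.48, SE 0.59, edgeR quasi-likelihood, Benjamini-Hochberg adjusted p = 4.35e-07), 538-fold lower with shRNA2 (-9.07, SE 0.58, adjusted p = 4.74e-07) and 208-fold lower with shRNA3 (-7.70, SE 0.54, adjusted p = 9.17e-07). Without shRNA3 libraries 1 and 2, the pair with the highest hairpin levels, the shRNA3 value was -9.68.

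MMP2 (ENSG00000087245, chromosome 16, 55389700 to 55506691, plus strand), gelatinase A, was much lower than MMP14 already in NC, at 4.34, 3.49 and 3.65 CPM. Its levels were 0.745, 0.242 and 0.722 CPM with shRNA1, 0.468, 0.507 and 0.498 CPM with shRNA2 and 0.593, 0.655 and 0.397 CPM with shRNA3. Every hairpin library was below every NC library, and the 3 hairpins overlapped each other. The fall was 6.67-fold, 7.70-fold and 7.0-fold for shRNA1, shRNA2 and shRNA3 (log2 -2.74, -2.94 and -2.81, SE 0.41, 0.41 and 0.42, edgeR quasi-likelihood, Benjamini-Hochberg adjusted p = 0.000161, 0.000121 and 0.000178). Leaving out shRNA3 libraries 1 and 2 gave a shRNA3 value of -3.22. The gene overlaps 3 others, among them MMP2-AS1 on the opposite strand.

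The interstitial collagenase MMP1 and the stromelysin MMP10 rose. MMP1 (ENSG00000196611, chromosome 11, 102789920 to 102798160, minus strand), which cuts fibrillar collagens, was at 1.46, 1.67 and 2.89 CPM in NC. It was at 43.8, 57.1 and 37.5 CPM with shRNA1, at 34.5, 34.1 and 39.2 CPM with shRNA2 and at 69.7, 74.8 and 34.6 CPM with shRNA3. The hairpin libraries were all above NC and overlapped between hairpins. MMP1 was 22.9-fold higher with shRNA1 (log2 4.52, SE 0.36, edgeR quasi-likelihood, Benjamini-Hochberg adjusted p = 1.99e-06), 17.9-fold higher with shRNA2 (4.16, SE 0.35, adjusted p = 3.26e-06) and 29.6-fold higher with shRNA3 (4.89, SE 0.36, adjusted p = 1.43e-06). The shRNA3 value was 4.13 without shRNA3 libraries 1 and 2.

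MMP10 (ENSG00000166670, chromosome 11, 102770503 to 102780628, minus strand), or stromelysin-2, which can also activate procollagenases, was at 0.757, 0.640 and 0.507 CPM in NC. Its levels were 2.78, 5.18 and 2.53 CPM with shRNA1, 2.63, 2.87 and 2.55 CPM with shRNA2 and 4.0, 5.39 and 3.32 CPM with shRNA3, all above NC. The rise was 5.47-fold, 4.20-fold and 6.60-fold (log2 2.45, 2.07 and 2.72, SE 0.36, 0.36 and 0.37, edgeR quasi-likelihood, Benjamini-Hochberg adjusted p = 0.000159, 0.000552 and 8.68e-05). Leaving out shRNA3 libraries 1 and 2 gave a shRNA3 value of 2.41. MMP10 and MMP3 are near relatives, and how the counting shared reads between such copies is not given in the sources used here. The plus-strand gene WTAPP1 overlaps both MMP10 and MMP1 and had 0 to 19 counts in each library.

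Matrilysin, collagenase-3 and gelatinase B were at low levels in every group. MMP7 (ENSG00000137673, chromosome 11, 102520508 to 102530753, minus strand), matrilysin, an epithelial metalloproteinase without the hemopexin domain, was at 1.26, 0.984 and 1.52 CPM in NC. It was at 0.149, 0.290 and 0 CPM with shRNA1 (the 0 allows up to 0.155 CPM, or 3 counts), at 0.351, 0.113 and 0.166 CPM with shRNA2 and at 0.889, 0.801 and 0.298 CPM with shRNA3. All hairpin libraries were below NC, with shRNA3 libraries 1 and 2 nearest to it. The fall was 8.13-fold with shRNA1 (log2 -3.02, SE 0.74, edgeR quasi-likelihood, Benjamini-Hochberg adjusted p = 0.00458) and 5.85-fold with shRNA2 (-2.55, SE 0.72, adjusted p = 0.0111), while the shRNA3 value of -0.95 (SE 0.65, adjusted p = 0.241) did not pass. These values rest on 20 to 30 counts in each NC library and 0 to 12 in each hairpin library. Without shRNA2 library 2 or 3 the shRNA2 adjusted p was 0.0542 or 0.0517 (log2 -2.24 or -2.38), and without shRNA1 library 2 the shRNA1 value was -3.93. Without shRNA3 libraries 1 and 2 the shRNA3 value, from library 3 alone, was -2.02.

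MMP13 (ENSG00000137745, chromosome 11, 102942995 to 102955734, minus strand), or collagenase-3, was at 2.37, 2.26 and 2.28 CPM in NC. Its levels were 0.845, 1.40 and 1.75 CPM with shRNA1, 1.81, 1.63 and 2.38 CPM with shRNA2 and 4.96, 3.79 and 1.49 CPM with shRNA3. The shRNA1 libraries lay below NC, and those of the other hairpins overlapped it. No difference passed the test (log2 -0.79, -0.25 and 0.55, SE 0.43, 0.42 and 0.42, edgeR quasi-likelihood, Benjamini-Hochberg adjusted p = 0.137, 0.649 and 0.285). Without shRNA3 library 3 the shRNA3 value was 0.92 (adjusted p = 0.0154) and the shRNA1 value -0.78 (adjusted p = 0.0283). Without shRNA3 libraries 1 and 2 the shRNA3 value turned to -0.60, and the shRNA1 value was -0.77.

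MMP9 (ENSG00000100985, chromosome 20, 46008908 to 46016561, plus strand), gelatinase B, had 2, 2 and 0 counts in NC. It had 10, 6 and 7 counts with shRNA1, 12, 4 and 4 with shRNA2 and 9, 20 and 7 with shRNA3. Each hairpin library held more than any NC library, but the gene had too few counts for the model. Scaled for depth, the 79 counts of the 9 hairpin libraries against 4 in NC gave a ratio of 7.37 (95% counting interval 2.77 to 27.7). The mean of log2(CPM + 1) was 0.49 higher in the hairpin libraries (exact permutation test, two-sided, p = 0.0318 over 220 splits). Both the ratio and this test pool the 9 libraries of the 3 hairpins as if they were replicates of 1 condition. They do not measure the spread between hairpins. SLC12A5-AS1 overlaps MMP9 on the opposite strand.

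**Figure D3:**
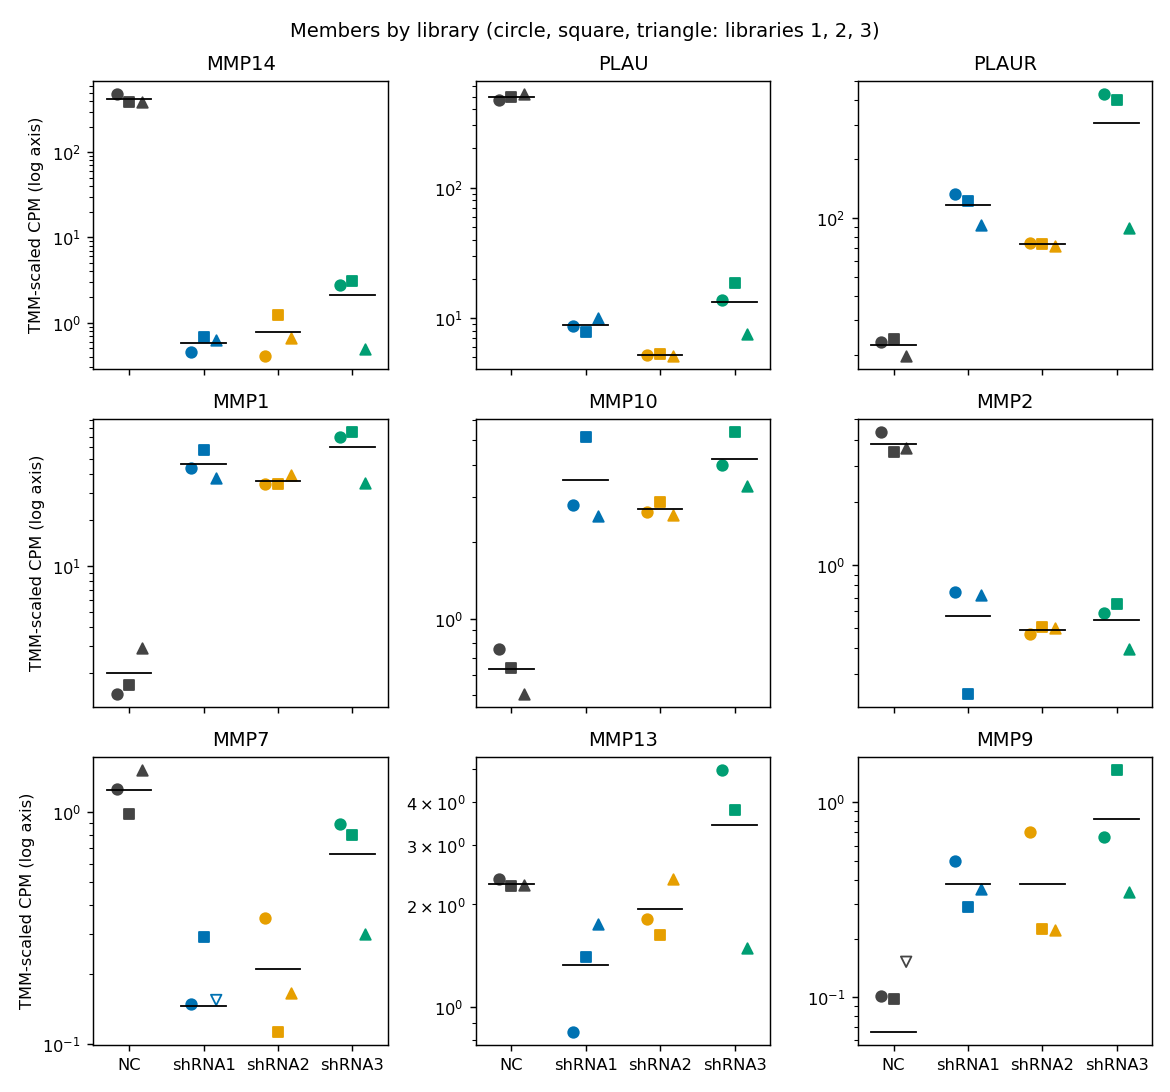
TMM-scaled CPM on log axes (y axis, its range differing by panel) of each of the 9 genes in the 3 libraries of NC, shRNA1, shRNA2 and shRNA3 (x axis); lines are group means, and open triangles pointing down stand at the level of 3 counts for a library with 0 counts. PLAUR and MMP13 show shRNA3 libraries 1 and 2 well above library 3.

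Levels of different genes were compared per kilobase of exon. In NC the order by mean was PLAU (168 ± 9.03 CPM per kilobase, SD, n = 3), MMP14 (94.0 ± 11.8), PLAUR (5.02 ± 0.509), MMP1 (1.02 ± 0.391), MMP13 (0.813 ± 0.0204), MMP2 (0.776 ± 0.0911), MMP7 (0.540 ± 0.115), MMP10 (0.361 ± 0.0711) and MMP9 (0.0284 ± 0.0246). The library ranges of the neighbours MMP1 and MMP13, MMP13 and MMP2, and MMP7 and MMP10 overlapped, and the other neighbours were separate. With each of the hairpins against FMOD, PLAUR and MMP1 took the first places, and PLAU and MMP10 followed. PLAUR was at 26.1 ± 4.74, 16.5 ± 0.260 and 68.6 ± 42.3 CPM per kilobase with shRNA1, shRNA2 and shRNA3, and MMP1 at 23.4 ± 5.07, 18.2 ± 1.45 and 30.3 ± 11.1 (SD, n = 3 each). The ranges of PLAUR and MMP1 overlapped with shRNA1 and shRNA3 and were separate with shRNA2. MMP14, second in NC, was seventh with shRNA1 and sixth with shRNA2 and shRNA3, where its range overlapped that of MMP9 each time.

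The make-up of the whole metalloproteinase family changed with these genes. Summed over 23 MMP genes, the level was 119 to 145 CPM per kilobase in NC and 36.3 to 109 in the hairpin libraries. MMP14 held 71.6% to 74.4% of that sum in NC and at most 0.641% in any hairpin library. MMP1 held 0.513% to 1.23% in NC and 29.7% to 53.7% in the hairpin libraries. The ranges of both shares were far apart. MMP15 held 18.0% to 20.2% in NC and 11.9% to 34.5% in the hairpin libraries. In shRNA3 library 1 its share (34.5%) was above that of MMP1 (32.5%). MMP28 held 2.08% to 2.43% in NC and 4.02% to 8.45% with shRNA1. Its share was 20.6% to 24.3% with shRNA2 and 15.1% to 18.0% with shRNA3.

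**Figure D4:**
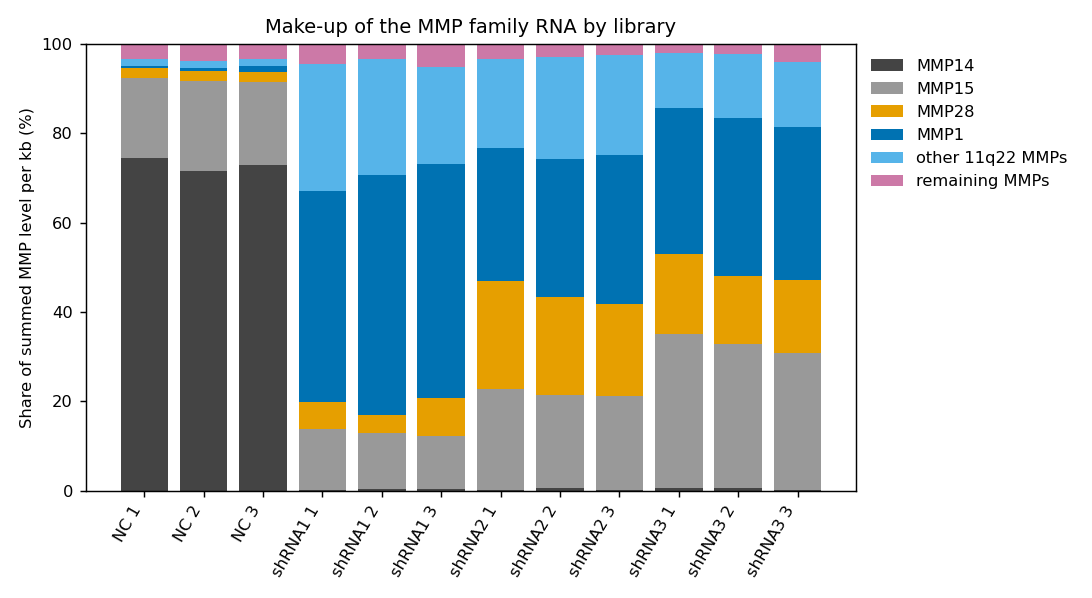
Share of the summed MMP level per kilobase (y axis, %) held by single genes in each of the 12 libraries (x axis); the light blue part is the other MMP genes of the 11q22 cluster. MMP14 fills 71.6% to 74.4% of the NC bars and MMP1 29.7% to 53.7% of the hairpin bars.

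Of the members, 4 lie in a cluster of 9 MMP genes that spans 435 kb of chromosome 11 from MMP7 to MMP13, all on the minus strand. The adjacent genes MMP10, MMP1, MMP3 and MMP12 rose with all 3 hairpins and lie within 105 kb, with 9.29 kb between MMP10 and MMP1. MMP3, stromelysin-1, rose from 3 counts over the NC libraries to 1383 over the hairpin libraries, a depth-scaled ratio of 172 (95% counting interval 58.7 to 835). MMP12, the macrophage elastase, rose by 4.25, 5.51 and 4.88 on the log2 scale (edgeR quasi-likelihood, Benjamini-Hochberg adjusted p = 1.58e-05, 3.04e-06 and 6.94e-06), and its shRNA3 value was 4.17 without shRNA3 libraries 1 and 2. At the ends of the cluster MMP7 fell with 2 hairpins and MMP13 was not called. MMP20, MMP27 and MMP8, between MMP7 and MMP10, had at most 2 counts in any library and were not tested. The cluster held 1.95% to 2.76% of the summed MMP level per kilobase in NC and 44.9% to 79.7% in the hairpin libraries.

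Outside the cluster, 8 of 11 protein-coding genes within 1000000 bases on either side were tested. None was higher with all 3 hairpins (16% of all tested genes were), 4 were lower (CFAP300, BIRC2, TMEM123 and DYNC2H1, beside 19.7% of all tested genes), and 4 were called in neither direction with all 3. The highest mean change among the 8 was that of YAP1, at 0.81, -0.07 and 1.17 on the log2 scale for the 3 hairpins, and 0.62 in place of 1.17 without shRNA3 libraries 1 and 2. In that fit the shRNA3 value of BIRC3 was -1.74, against -0.55 with all libraries, which did not pass. That of TMEM123 was -1.19 in place of -0.57.

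**Figure D5:**
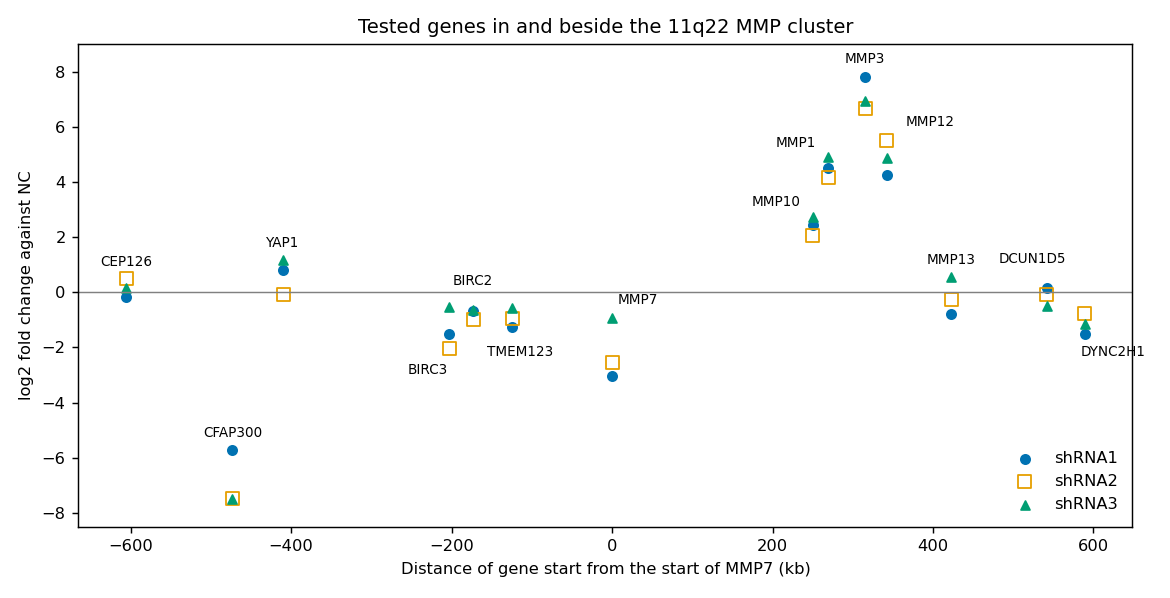
Log2 fold change against NC (y axis) of each tested protein-coding gene by the distance of its lowest coordinate from that of MMP7 (x axis, kb), for shRNA1, shRNA2 and shRNA3. MMP10, MMP1, MMP3 and MMP12 are all above 2 with each hairpin, and no gene outside the cluster is.

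The hairpins against FMOD were also compared with each other. Between shRNA1 and shRNA2 none of the 8 tested members differed in edgeR's quasi-likelihood test (12.3% of all tested genes did), 1 had an unadjusted p under 0.05 (PLAU, 0.0141), and DESeq2 called 1. In an edgeR quasi-likelihood fit of these groups alone, PLAU (log2 0.74, adjusted p = 0.00891) and PLAUR (0.65, adjusted p = 0.00606) were higher with shRNA1. Between shRNA1 and shRNA3, 3 of 8 were lower with shRNA1, beside 18.1% of all genes lower and 30% called in either direction. They were MMP13 (log2 -1.34, adjusted p = 0.0379), MMP14 (-1.78, adjusted p = 0.0377) and PLAUR (-1.40, adjusted p = 0.0320). Between shRNA2 and shRNA3, 2 of 8 were lower with shRNA2, beside 6.43% of all genes lower and 8.34% in either direction: PLAU (-1.33, adjusted p = 0.0269) and PLAUR (-2.06, adjusted p = 0.0296). Without shRNA3 libraries 1 and 2, MMP13, MMP14 and PLAUR between shRNA1 and shRNA3 were at -0.17, 0.21 and 0.37. Between shRNA2 and shRNA3, PLAU and PLAUR were then at -0.53 and -0.28. These sizes rest on shRNA3 library 3 alone.

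Other genes of the pathway were followed through lists by role. Of all tested genes, 16% were higher and 19.7% lower with all 3 hairpins. Of 16 other MMP genes 10 were tested, of which 2 rose with all 3 hairpins (MMP3 and MMP12) and 3 fell (MMP11, MMP16 and MMP24), with median log2 fold changes of 0.49, 0.71 and 0.91 for the list. MMP11, stromelysin-3, went from between 11 and 14.2 CPM in NC to between 0.155 and 2.07 CPM. MMP15, a membrane-type relative of MMP14, was at 98.0 to 115 CPM in NC, 19.0 to 30.2 CPM with shRNA1, 51.4 to 58.7 CPM with shRNA2 and 69.4 to 166 CPM with shRNA3. It fell with shRNA1 and shRNA2 (log2 -2.05 and -0.96, edgeR quasi-likelihood, Benjamini-Hochberg adjusted p = 0.000117 and 0.0127) and was not called for shRNA3 (0.27, adjusted p = 0.439). The shRNA3 libraries parted, with 166 and 152 CPM in libraries 1 and 2, above NC, and 69.4 CPM in library 3, below it. Leaving out libraries 1 and 2, MMP15 was at -0.60 with shRNA3, and MMP17 at 1.87 in place of 1.37.

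Among 5 inhibitors of metalloproteinases, 3 rose with all 3 hairpins and 1 fell, beside 16% and 19.7% of all tested genes. TIMP1 went from between 52.2 and 58.1 CPM in NC to between 173 and 408 CPM, and TIMP3 from between 43.1 and 54.4 CPM to between 116 and 327 CPM. TIMP4 rose from a lower level (log2 0.71, 1.88 and 1.19). Its shRNA1 call (edgeR quasi-likelihood, Benjamini-Hochberg adjusted p = 0.0477) was lost under 13 of 19 alternatives, with adjusted p from 0.0523 to 0.155. RECK, a membrane-anchored inhibitor of MMP14, MMP2 and MMP9, fell by 1.47, 1.45 and 1.10 on the log2 scale (edgeR quasi-likelihood, Benjamini-Hochberg adjusted p = 0.000204, 0.000243 and 0.00151). TIMP2, which MMP14 needs to activate pro-MMP2, was at 347 to 392 CPM in NC and 184 to 325 CPM in the hairpin libraries, called lower for shRNA1 and shRNA2 (log2 -0.87 and -0.86) and not for shRNA3 (-0.40, adjusted p = 0.0862). Without libraries 1 and 2 of shRNA3, at 325 and 317 CPM against 192 CPM in library 3, the shRNA3 value of TIMP2 was -0.90. Per kilobase, MMP14 was 1.35 to 1.55 times TIMP2 in NC, and TIMP2 was 82.2 to 397 times MMP14 in the hairpin libraries.

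Of 10 other genes of the plasminogen system 8 were tested, and 4 rose and 1 fell with all 3 hairpins. The shares over all tested genes were 16% and 19.7%. ANXA2 and S100A10, which form a plasminogen-binding complex at the cell surface, rose by 0.78 to 0.97 and by 0.80 to 1.51 on the log2 scale, and F12, the contact-pathway protease, by 1.11 to 1.92. The shRNA3 values of ANXA2 and S100A10, 0.97 and 1.51, were 0.36 and 0.80 without shRNA3 libraries 1 and 2. VTN also rose, from at most 3 counts in each NC library to between 13 and 45. PLGRKT, a transmembrane plasminogen receptor, fell by 1.97, 1.65 and 1.57. PLAT, the tissue-type activator, was at 28.5 to 50.6 CPM in NC and 20.5 to 49.0 CPM in the hairpin libraries and was called lower for shRNA1 (log2 -0.86, edgeR quasi-likelihood, Benjamini-Hochberg adjusted p = 0.00505). Plasminogen itself (PLG) had at most 3 counts in any library.

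Among 7 inhibitors of plasminogen activation 6 were tested, of which 1 rose (SERPINB2) and 2 fell (SERPINA5 and SERPINI1) with all 3 hairpins. The shares over all tested genes were 16% and 19.7%. SERPINB2, an inhibitor of urokinase, went from between 0.151 and 0.295 CPM in NC to 8.56 to 16.3 CPM with shRNA1, 1.01 to 1.66 CPM with shRNA2 and 1.69 to 2.82 CPM with shRNA3 (log2 5.93, 2.51 and 3.40, edgeR quasi-likelihood, Benjamini-Hochberg adjusted p = 1.26e-06, 0.000516 and 5.50e-05). SERPINI1 lost its call under 10 of 19 alternatives for shRNA1 and 9 for shRNA3, among them the fit without shRNA3 libraries 1 and 2 (shRNA3 value -0.66).

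Of 16 other pericellular proteases 14 were tested, and 1 rose (ADAM12) and 1 fell (DPP4) with all 3 hairpins. The shares over all tested genes were 16% and 19.7%. The shRNA3 call of ADAM12 was lost under 9 of 19 alternatives. Without shRNA3 libraries 1 and 2 its shRNA3 value was 0.75 in place of 0.97. In that fit ADAM9, ADAM10 and CTSB went from -0.22, -0.12 and 0.79 to -0.91, -0.66 and -0.45 with shRNA3. Of 18 transcription factors known to bind MMP or PLAU promoters, 4 rose with all 3 (NFKB1, ETV4, ETS2 and ETS1) and 1 fell (STAT3). These counts stand beside the same 16% and 19.7%. The shRNA3 call of STAT3 (log2 -0.52, edgeR quasi-likelihood, Benjamini-Hochberg adjusted p = 0.0491) was lost under 14 of 19 alternatives, with adjusted p from 0.053 to 0.228. STAT3 was at -1.09 without shRNA3 libraries 1 and 2. For shRNA3 alone 14 of the 18 were higher with all libraries, beside 26.4% of all tested genes. Without libraries 1 and 2 most of these shrank. JUNB went from 1.72 to -0.09, ELF3 from 1.86 to 0.47 and FOSB from 3.67 to 0.58. FOS went from 1.12 to 0.27, FOSL2 from 0.68 to 0.25 and JUND from 1.49 to 0.53. SP1 (1.20 to 0.52), ETS2 (1.35 to 1.01), ETV4 and FOSL1 shrank too. Those that grew were NFKB1 (1.25 to 1.93), ETV1 (1.32 to 1.44), ETS1 (0.38 to 0.49) and ETV5 (0.68 to 0.73). ETS2 went from between 154 and 164 CPM in NC to between 316 and 475 CPM. ETV4 rose by 1.03, 1.62 and 2.15 on the log2 scale, the last being 1.49 without shRNA3 libraries 1 and 2. FOSL1, an AP-1 subunit, was at 84.5 to 113 CPM in NC, 156 to 242 CPM with shRNA1, 51.3 to 60.8 CPM with shRNA2 and 91.5 to 442 CPM with shRNA3, and was called higher for shRNA3 (log2 1.71, edgeR quasi-likelihood, Benjamini-Hochberg adjusted p = 0.00697) but not for shRNA1 (1.04, adjusted p = 0.0608) or shRNA2 (-0.79, adjusted p = 0.151). The shRNA3 call rests on libraries 1 and 2, at 436 and 442 CPM, since library 3 was at 91.5 CPM, within the NC range. Leaving them out, FOSL1 was at -0.09 for shRNA3, 1.05 for shRNA1 and -0.77 for shRNA2. The shRNA1 libraries all lay above NC, and the shRNA2 libraries all lay below it. The model shares the spread of a gene among the 4 groups, so the shRNA3 split also enters the tests of shRNA1 and shRNA2.

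For each tested member the genes with the most similar profile were found by Pearson correlation of log2(CPM + 1) among 10036 genes with a mean of at least 10 CPM. All pairs share the libraries and their contrast with NC, so the values are a description. Over 12 libraries, among the nearest genes were PTK7 and NDRG2 for MMP14 (0.997 each), CERCAM for PLAU (0.996), OTUD1 and TMEM164 for PLAUR (0.991 each), and ZNF595 (0.996) and MRPL18 (0.995) for MMP1. PRCP (0.992) was nearest to MMP2, NFYB (0.988) to MMP10, TSPAN13 (0.975) to MMP7 and TMUB2 (0.964) to MMP13. Over the 9 hairpin libraries alone PLAUR was nearest to PHLDA1 and DUSP1 (0.997 each). There PLAUR was at 429 and 399 CPM in shRNA3 libraries 1 and 2 and at 72.1 to 133 CPM in the others. The part of that split in these correlations was not tested.

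Markers of other cell types moved with the same contrast. Of 8 fibroblast markers, 3 reached 1 CPM in every NC library and 1 in every library of each hairpin, with a summed level of 56.8 to 59.7 CPM in NC and 15.6 to 86.6 CPM in the hairpin libraries. COL1A1 held most of that sum, at a mean of 41.7 CPM in NC and 17.3, 44.6 and 65.8 CPM with the 3 hairpins. Of the 4 fibroblast markers tested, 3 fell with all 3 hairpins (COL1A2, LUM and PDGFRB) and 0 rose, beside 19.7% and 16% of all tested genes. PDGFRB went from a mean of 10.7 CPM to 0.863 CPM and COL1A2 from 4.80 CPM to 0.031 CPM over the hairpin libraries. DCN and THY1 were at 0 in NC. The summed level of 5 endothelial markers was 17.8 to 23.4 CPM in NC and 3.88 to 13.3 CPM in the hairpin libraries. The endothelial markers parted, since CDH5 and VWF fell with all 3 hairpins, from means of 17.3 and 2.02 CPM to 1.94 and 0.382 CPM, and PECAM1 rose from 0.133 to 5.36 CPM. With shRNA3, VWF and CDH5 were at -1.22 and -2.63 on the log2 scale without shRNA3 libraries 1 and 2, in place of -1.89 and -3.62. Among 7 macrophage and leukocyte markers, PTPRC and AIF1 were at 0 in NC, and the summed level was 62.3 to 79.1 CPM there and 49.5 to 242 CPM in the hairpin libraries. Of the 3 tested, 1 rose (CSF1R) and 1 fell (CD14) with all 3 hairpins, beside 16% and 19.7% of all tested genes. With shRNA3, CSF1R, CD68 and CD14 were at 1.15, 1.60 and -2.40 on the log2 scale. Without shRNA3 libraries 1 and 2 they were at 1.80, 0.80 and -1.77. The part of these differences, and of those in the keratinocyte markers, in the changes of MMP14, PLAU, PLAUR and MMP1 was not tested. In such bulk samples, fewer cells with a transcript and less of it per cell cannot be told apart.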

How the data were processed

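Gene counts of 12 SCC-15 libraries (4 groups, 3 libraries each) were analysed, grouped by sample title. The authors deposited 1 table of estimated counts per gene, which they had not scaled to a common depth. Of its values, 13.8% are not whole. The submitters' processing notes name HISAT2, HTSeq 0.11.2 and GRCh38. The annotation, filters and use of strand are not given in the sources used here. Columns not matched to a sample numbered 0.

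Counts were rounded to whole numbers. Genes were kept by edgeR's filterByExpr (minimum count 10, minimum total 15), which left 17532, scaled by TMM and compared by edgeR's quasi-likelihood F test, two-sided (R 4.3.3, edgeR 4.0.16, robust fit, 1 model of the 4 groups) with Benjamini-Hochberg adjustment and a threshold of 0.05. The script was tested on simulated data with less spread and far fewer changed genes than these libraries. That test does not measure its accuracy here. The common biological coefficient of variation was 0.289. CPM are TMM-scaled, and CPM per kilobase uses the union of exons in GENCODE 29. MMP9 was compared by an exact permutation test of log2(CPM + 1), with the libraries of all 3 hairpins pooled against NC. Counting intervals (95%, exact) and the floor of 3 counts hold for counting error alone, because PCR copies carry no molecular identifiers.

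All 9 members were named, then from each list the genes called with all 3 hairpins with a mean of at least 1 CPM (at most 4, by the smallest change), the 2 genes most correlated with each member, and the genes of the 11q22 cluster. Some genes that these rules and lists cover are not reported here. MMP15, TIMP2, PLAT, PLG, FOSL1, KRT5, YAP1 and the remaining list genes named were added after their values were seen. The members and lists were chosen with earlier results of these data known. Replicate numbers come from the titles. The alternatives were DESeq2 (1.42.0) size factors and Wald test, no filter, fits of the compared groups alone, a replicate block, a log2 change of at least 1, each library left out, and shRNA3 libraries 1 and 2 left out together. Library totals without TMM factors were added after seeing the data.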

Additional observations from a re-analysis of the deposited data

How the results depend on the processing

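Against NC, the 6 members called with all 3 hairpins (MMP1, MMP10, PLAUR, MMP2, MMP14, PLAU) passed in that direction under every alternative run. Of 506 alternative values of called members, 504 kept direction and call, and MMP7 with shRNA2 lost it without shRNA2 library 2 or 3. With library totals in place of TMM the median log2 fold change of all genes against NC moved from -0.03 to -0.35 for shRNA3, and the same 6 members were called in the same directions.

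Differences between hairpins were less stable; beyond what follows, the cause was not tested. The count of members called between shRNA1 and shRNA2 was 0, and 1 by the DESeq2 Wald test and with library totals, 2 in a fit of the compared groups alone and 2 without shRNA3 libraries 1 and 2 (0 to 2 leaving out 1 library). Between shRNA1 and shRNA3 it was 3, and 0 without a filter, in a fit of the compared groups alone and with library totals (0 to 6 leaving out 1 library). Between shRNA2 and shRNA3 it was 2, and 0 in a fit of the compared groups alone (0 to 7 leaving out 1 library).

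Log2 values that turned sign without shRNA3 libraries 1 and 2 were, for shRNA1 against shRNA3, MMP1 0.40, MMP10 0.06, MMP14 0.21, PLAU 0.22 and PLAUR 0.37. For shRNA2 against shRNA3 they were MMP1 0.04, MMP2 0.29, MMP13 0.37 and MMP14 0.62, and for shRNA3 against NC MMP13 -0.60. With library totals MMP2 (shRNA2 against shRNA3) became 0.08 and MMP10 (shRNA1 against shRNA3) 0.01. Leaving out 1 library turned, between shRNA1 and shRNA2, MMP2 to -0.03 (range up to 0.56), MMP7 to 0.07 and 0.08 (from -1.40), MMP10 to -0.02 (up to 0.57) and MMP14 to 0.11 (from -0.70), and, between shRNA1 and shRNA3, MMP2 to -0.16, -0.13 and -0.12 (up to 0.44). None of these turned values passed the test.

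The replicate numbers did not pair the libraries: over 18 same-numbered pairs the mean correlation of deviations was -0.00267 (-0.0574 to 0.0468), and 5 of 12 libraries correlated best with their own number. In the fit with a replicate block, 7, 7 and 6 members were called for shRNA1, shRNA2 and shRNA3 against NC, 7 for their mean, 6 for all 3 in 1 direction, and 0, 2 and 2 between hairpins; the list genes called with all 3 numbered 21, against 24 without the block.

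List genes called with all 3 hairpins ranged from 19 to 31 leaving out 1 library. Of 1140 alternative values of the list genes picked by the naming rule (at most 4 from each list, MMP1 and MMP10 among them), 55 lost the call. These were TIMP4 and SERPINI1 for shRNA1, and SERPINI1, ADAM12 and STAT3 for shRNA3. Other genes named, such as ETS1, VTN, MMP16, MMP24, SERPINA5 and DPP4, were not in this count. TIMP4 with shRNA1 was at 0.68 (edgeR quasi-likelihood, Benjamini-Hochberg adjusted p = 0.0523) with DESeq2 size factors. MMP9 in a fit without a filter had adjusted p = 0.0480, 0.0521 and 0.00469 for the 3 hairpins (edgeR quasi-likelihood). With any 1 NC library left out it was 0.059 to 0.103, 0.0649 to 0.113 and 0.0152 to 0.0192. Other fits leaving out 1 library gave values on both sides of 0.05 for shRNA1 and shRNA2. Without shRNA3 libraries 1 and 2 the shRNA3 value of MMP9 was 2.30, against 3.48 without a filter. A pseudocount of 0.1 gave a difference of 1.80 for the pooled hairpin libraries (exact permutation p = 0.00455, the smallest that 220 splits allow). Depth limits MMP7, MMP9, MMP13 (17 to 67 counts in each library), MMP10 in NC (10 to 15 counts) and, in the hairpin libraries, MMP2 and MMP14, which had under 50 counts there.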
